A study of Mus musculus with 6 samples.

Results

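The platelet-derived growth factor (PDGF) family was followed in EGFP+ myofibroblasts sorted from pressure-overloaded mouse hearts. Its members were taken by gene symbol from the deposited expression table: the 4 ligands *Pdgfa*, *Pdgfb*, *Pdgfc* and *Pdgfd*, the 2 receptors *Pdgfra* and *Pdgfrb*, and the receptor-like gene *Pdgfrl*. These are 7 of the 28987 genes in the table, and all 7 were among the 15109 genes that were tested (a mean linear value of at least 1 over the 6 libraries). Every mouse carried a MerCreMer cassette knocked into the *Postn* locus and a Cre-dependent eGFP reporter in the Rosa26 locus, received tamoxifen, and underwent TAC (transverse aortic constriction, which puts the left ventricle under pressure overload) at 8 to 10 weeks of age. Ventricular cells were sorted 4 weeks after TAC on eGFP, which marks cells that have expressed *Postn*, the periostin gene of activated fibroblasts. The 3 control libraries (numbered 2, 3 and 4 in their titles) carried no other allele in the labels. The 3 libraries labelled Hsp47-deleted (1, 2 and 3, called deleted 1, 2 and 3 here) came from mice that were also Hsp47flox/flox, so that the same Cre was meant to remove the collagen chaperone gene *Serpinh1* (Hsp47). The labels do not say how many mice went into a library, so the p-values measure only the spread between these libraries, which may be technical.

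PDGF ligands are secreted as dimers and act through receptor tyrosine kinases, which pair up on the cell surface and signal through the RAS-MAPK, PI3K and phospholipase C pathways to drive the growth and migration of mesenchymal cells. PDGF-A and PDGF-C act mainly through the α receptor, the product of *Pdgfra* and a standard marker of cardiac fibroblasts, PDGF-D acts mainly through the β receptor, the product of *Pdgfrb* and a marker of pericytes and smooth muscle cells, and PDGF-B binds both. PDGF-C and PDGF-D are made with a CUB domain that proteases must cut off before the ligand can bind.

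*Pdgfc* and *Pdgfd* encode the latent ligands, the one for the α and the other for the β receptor, and the 250 bases before the RefSeq start of each are shown so that the pair can be compared (RefSeq, GRCm38.p6, both on the plus strand, 5′ to 3′). The *Pdgfc* window is chr3:81036166-81036415 and the *Pdgfd* window is chr9:6168236-6168485. Capitals mark a TATAAA match.
Pdgfc: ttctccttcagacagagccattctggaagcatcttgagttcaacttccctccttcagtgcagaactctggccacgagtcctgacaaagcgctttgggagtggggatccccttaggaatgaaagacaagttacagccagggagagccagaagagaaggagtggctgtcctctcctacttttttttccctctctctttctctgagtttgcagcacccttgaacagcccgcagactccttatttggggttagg
Pdgfd: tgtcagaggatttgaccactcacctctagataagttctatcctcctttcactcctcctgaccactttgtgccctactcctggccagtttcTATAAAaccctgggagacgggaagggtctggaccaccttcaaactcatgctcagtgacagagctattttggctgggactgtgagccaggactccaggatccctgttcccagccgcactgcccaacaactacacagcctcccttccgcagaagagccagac
Both windows overlapped 0 annotated exons and held 3 CpG dinucleotides each, with a GC content of 50.8% for *Pdgfc* and 53.6% for *Pdgfd* against a median of 52.4% over 32851 RefSeq promoters. Both strands were searched for the TATA box letters TATAAA, which 12.37% of all promoters held, for the GC box letters GGGCGG (32.74%), for the CCAAT box (33.85%), for the AP-1 motif TGACTCA (4.46%) and for the cAMP response element TGACGTCA (1.55%). None of these strings contains another. The *Pdgfd* window held 1 match, the TATA box letters at position -160 from the start on the plus strand, and the *Pdgfc* window held none. The RefSeq start of *Pdgfd* is the start of 0 transcripts in GENCODE M21, where the gene begins further downstream, and that of *Pdgfc* is the start of 1, so the position given for *Pdgfd* holds for the RefSeq start alone. The members *Pdgfa* and *Pdgfra* also had an entry in the promoter table.

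The libraries differed in ways that touch every value below. Control 3 and 4 were sequenced in one run (the first run), and control 2 was sequenced with all 3 deleted libraries in another (the second run), so that run and label overlap in part. Control 2 correlated more closely with the deleted libraries (Pearson r over tested genes of 0.872 to 0.936) than with control 3 and 4 (0.827 and 0.761). *Serpinh1* stood at 6.28, 6.10 and 7.60 on the log2 scale in control 3, 4 and 2 and at 6.87, 6.67 and 6.66 in deleted 1, 2 and 3. The targeted transcript was therefore above 2 of the 3 controls in every deleted library, and below the control of its own run, so directions are given for the libraries as labelled. The median log2 difference of all tested genes was 0.35, and 74.5% of tested genes had a difference above 0. Differences of the members are therefore also given after each library was centred on the median of its tested genes, and against control 2 alone (1 library, no test). The median difference of all tested genes was -0.060 after centring and 0.29 against control 2 alone. Summed marker genes of fibroblasts were high in every library, with linear values of 8070 to 10888 in controls and 12503 to 14269 in deleted libraries. Most of this sum was *Dcn* (5090 to 8636), and *Postn* is on the list. The markers did not move together, as *Lum*, *Ddr2* and *Pdpn* had lower means in the deleted libraries and the others had higher means. Leukocyte transcripts were present too. Of the 7 leukocyte markers in the table *Ptprc* was listed at 0 in all 6 libraries. *Cd68* had linear values of 19.2 to 63.6 and *Lyz2* of 1.29 to 56.7. *Cd52* was listed at 0 in control 3 and 4 and stood at 13.0 to 24.7 in the second run. *Lyz2*, *Csf1r* and *Fcgr1* were also lower in control 3 and 4 than in the second run. *Itgam* went the other way, with 7.03 and 14.3 in control 3 and 4 and 3.13 to 6.53 in the second run. *Postn* itself had linear values of 57.0 to 68.5 in controls and 1188 to 1451 in deleted libraries.

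As deposited, receptor transcripts stood above ligand transcripts. The mean linear value in controls was 68.1 ± 28.4 (SD, n = 3) for *Pdgfra*, 38.3 ± 11.0 for *Pdgfrl* and 28.2 ± 19.7 for *Pdgfrb*. Among ligands it was 8.84 ± 1.28 for *Pdgfa*, 2.94 ± 1.55 for *Pdgfd*, 1.78 ± 0.23 for *Pdgfc* and 1.04 ± 1.44 for *Pdgfb*. The deleted libraries kept this order, with 85.8 ± 29.0, 77.9 ± 2.67 and 72.0 ± 19.2 for the 3 receptor genes and 10.4 ± 1.14, 7.61 ± 0.91, 2.17 ± 1.13 and 1.79 ± 0.80 for the ligands. The ranges of *Pdgfra*, *Pdgfrl* and *Pdgfrb* overlapped in both groups. Read within each library, *Pdgfra* was above *Pdgfrb* in all 6 (1.02 to 3.11 times in linear values), and above *Pdgfrl* in 3 of 3 controls and 2 of 3 deleted libraries, whereas *Pdgfrl* was above *Pdgfrb* in 2 of 3 libraries of each group. The steps from *Pdgfrb* down to *Pdgfa* and from *Pdgfa* to *Pdgfd* did not overlap in either group, and the step from *Pdgfd* to *Pdgfc* did not overlap in the deleted libraries. *Pdgfc* and *Pdgfb* overlapped in both groups, with *Pdgfc* above in 2 of 3 controls and 1 of 3 deleted libraries. Whether the values are already per transcript length is not stated. Divided by the length of the longest coding transcript, *Pdgfrl* (1548 bases) came first in both groups at 24.7 and 50.3 per kilobase, *Pdgfra* stood at 9.97 and 12.6 and *Pdgfrb* at 5.20 and 13.3 per kilobase, and the ligands kept their places. The mean of the leading ligand *Pdgfa* was 4.29 and 5.07 per kilobase, close under that of *Pdgfrb* in the controls. That *Pdgfrb* mean rests largely on control 2 (linear value 50.9, against 19.0 and 14.8 in control 3 and 4). The order per kilobase was taken from group means, and single controls depart from it. Divided by 2060 bases for *Pdgfa* and 5423 for *Pdgfrb*, *Pdgfa* lay above *Pdgfrb* in control 3 and 4. It lay under *Pdgfrb* in control 2 and in every deleted library. *Pdgfra* lay above 92.4% of tested genes in controls, while *Pdgfb* lay above 3.99% of them.

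**Figure D1:**
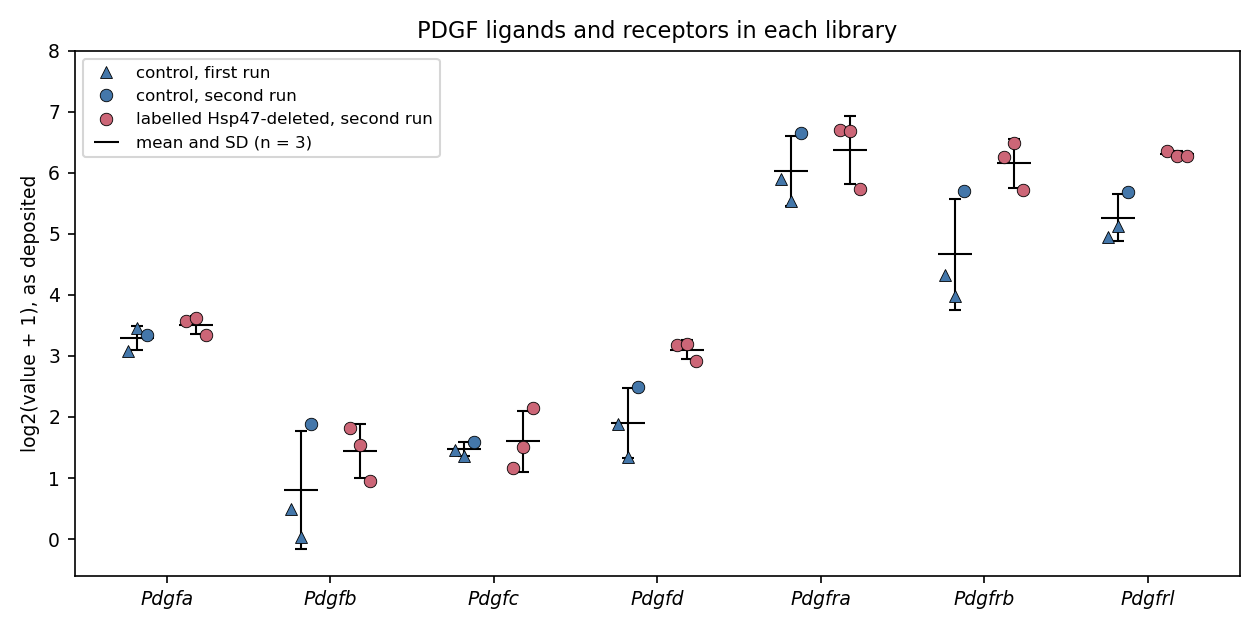
Log2(value + 1) of the 7 genes in each library. Blue points are controls and red points are libraries labelled Hsp47-deleted, triangles are the first run and circles the second run, and bars give the mean and SD of 3 libraries. The groups are apart for *Pdgfd* (highest control 2.48, lowest deleted 2.92) and *Pdgfrl* (5.69 and 6.27), touch for *Pdgfrb* (5.70 and 5.71), and overlap for the other genes.

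None of the 7 members passed an adjusted p of 0.05 in limma, against 37 genes or 0.245% of those tested, of which 35 were higher and 2 lower in the deleted libraries. At an unadjusted p under 0.05, 3 of the 7 (*Pdgfd*, *Pdgfrb* and *Pdgfrl*) were higher, against 14.5% of all tested genes, and 0 were lower, against 0.755%. For the same 3 genes every deleted library lay above every control, against 18.3% of tested genes, and the two-sided exact permutation test gave p = 0.1 for each, its lowest possible value with 3 libraries against 3. After centring, 2 members (*Pdgfd* and *Pdgfrl*) were still above every control, against 6.54%, and *Pdgfa* was below every control, against 7.24%. Without control 2, the single control that shares a run with the deleted libraries, the 3 genes passed (adjusted p of 0.0237 for *Pdgfd*, 0.00989 for *Pdgfrb* and 0.0181 for *Pdgfrl* by limma with Benjamini-Hochberg adjustment), but 2768 genes or 18.3% of those tested then passed too, and there run and label cannot be told apart. In RNA from sorted cells in bulk, fewer cells of a type and less RNA per cell cannot be told apart either.

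**Figure D2:**
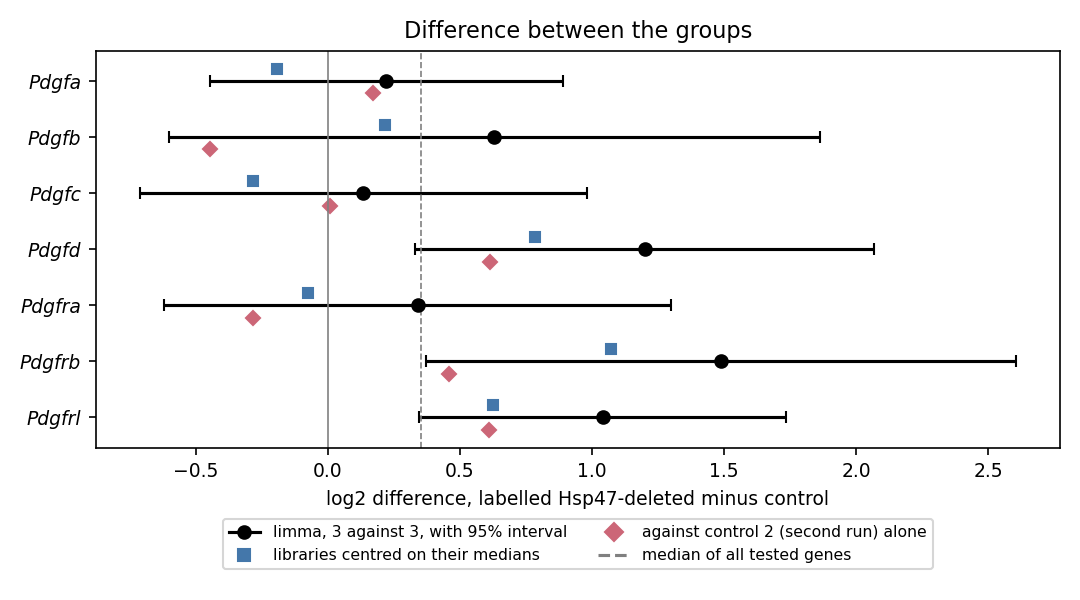
Log2 difference, libraries labelled Hsp47-deleted minus control, for each gene. Black circles with bars are the limma estimate and its 95% interval, and blue squares the estimate after centring each library on its median. Red diamonds are the difference from control 2 of the second run. The dashed line is the median of all tested genes at 0.35, which holds for the black circles (0.29 against control 2 alone). The intervals of *Pdgfd*, *Pdgfrb* and *Pdgfrl* lie above 0, and their red diamonds stand closer to 0 than their black circles.

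*Pdgfra* (chromosome 5, 75152292 to 75198215, plus strand, mm10) encodes the α receptor. Its log2 values were 5.90, 5.54 and 6.66 in control 3, 4 and 2 and 6.71, 6.68 and 5.74 in deleted 1, 2 and 3. Control 2 stood with deleted 1 and 2, and deleted 3 lay among the controls of the first run, so the groups overlapped. The difference was 0.34 (SE 0.41, 95% interval -0.62 to 1.30, limma adjusted p = 0.703), close to the median of all genes. It was -0.28 against control 2 alone and -0.074 after centring.

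*Pdgfrb* (chromosome 18, 61045150 to 61085061, plus strand) encodes the β receptor. It stood at 4.32, 3.98 and 5.70 on the log2 scale in control 3, 4 and 2 and at 6.26, 6.50 and 5.71 in deleted 1, 2 and 3. Control 2 lay far above the other controls and level with deleted 3. The mean log2 value was 4.67 ± 0.91 in controls and 6.15 ± 0.40 in deleted libraries (SD, n = 3 each), a difference of 1.49 (SE 0.48, 95% interval 0.37 to 2.61, limma adjusted p = 0.283), with linear means 2.55-fold apart. The difference was 1.07 after centring, where the groups overlapped, and 0.46 against control 2 alone. Summed mural markers, those of pericytes and smooth muscle cells, ranged from 169 to 294 in controls and from 129 to 194 in deleted libraries on the linear scale. The 8 markers did not move together. The pericyte gene *Rgs5* was below every control in every deleted library (log2 difference -0.65, limma adjusted p = 0.390), *Mcam* was above every control (1.03, limma adjusted p = 0.297), and the other 6 overlapped, with differences from -0.88 for *Kcnj8* to 1.16 for *Des*. The part of such cells in the *Pdgfrb* result was not tested.

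*Pdgfrl* (chromosome 8, 40926212 to 40990785, plus strand) encodes a secreted protein that resembles the ligand-binding part of the receptors and has no kinase domain. Its log2 values were 4.95, 5.14 and 5.69 in control 3, 4 and 2 and 6.36, 6.27 and 6.28 in deleted 1, 2 and 3. The deleted libraries lay close together, and all were above all controls. The mean went from 5.26 ± 0.39 to 6.30 ± 0.048, a difference of 1.04 (SE 0.30, 95% interval 0.35 to 1.73, limma adjusted p = 0.274) or 2.03-fold on linear means. It was 0.63 after centring and 0.61 against control 2 alone. Of the members *Pdgfrl* had the smallest p.

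The balance between the receptors can be read within a library, where a common scaling factor nearly cancels. The log2 value of *Pdgfra* minus that of *Pdgfrb* was 1.59, 1.56 and 0.96 in control 3, 4 and 2 and 0.45, 0.19 and 0.027 in deleted 1, 2 and 3. Every deleted library was below every control, and control 2 lay between the other controls and the deleted libraries. The means were 1.37 ± 0.35 and 0.22 ± 0.21, a difference of -1.15 (exact permutation test, two-sided, p = 0.1, and 0.3 after adjustment over 3 such contrasts). Against control 2 alone the difference was -0.74. In linear values *Pdgfra* was 3.11, 3.07 and 1.97 times *Pdgfrb* in the controls and 1.37, 1.14 and 1.02 times in the deleted libraries, in the same order.

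**Figure D3:**
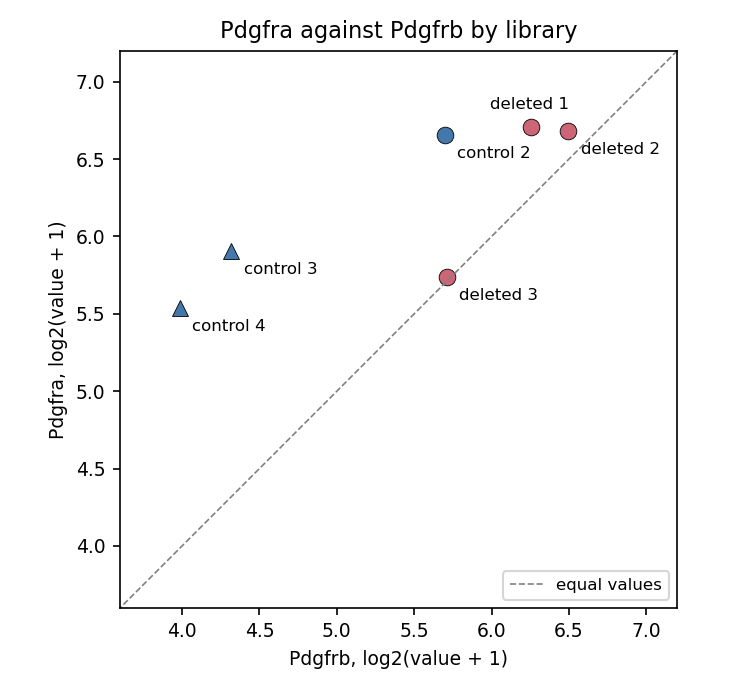
Log2(value + 1) of *Pdgfra* against *Pdgfrb* in each library, with controls in blue, libraries labelled Hsp47-deleted in red, the first run as triangles, the second run as circles and equal values as a dashed line. All 6 points lie on or above the line, and the 3 red points are nearest to it (0.45, 0.19 and 0.027 above).

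*Pdgfa* (chromosome 5, 138976014 to 138997370, minus strand) encodes a ligand of the α receptor and was the most abundant ligand transcript. Its log2 values were 3.08, 3.45 and 3.34 in control 3, 4 and 2 and 3.57, 3.62 and 3.34 in deleted 1, 2 and 3. Values were tight and overlapped. The difference was 0.22 (SE 0.29, 95% interval -0.45 to 0.89, limma adjusted p = 0.725). Centring turned it to -0.19, with every deleted library then below every control.

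*Pdgfb* (chromosome 15, 79995874 to 80014977, minus strand) encodes the ligand that binds both receptors, made mainly by endothelial cells and platelets. Its mean was the lowest of the members in both groups. Within libraries, *Pdgfc* was above it in only 2 of 3 controls and 1 of 3 deleted libraries. On the log2 scale *Pdgfb* stood at 0.50, 0.036 and 1.88 in control 3, 4 and 2 and at 1.82, 1.53 and 0.95 in deleted 1, 2 and 3. Control 2 held the highest value, and all 4 libraries of the second run lay above both controls of the first run. The difference was 0.63 (SE 0.53, 95% interval -0.60 to 1.86, limma adjusted p = 0.570) over all libraries and -0.45 against control 2 alone. Summed endothelial markers were 76.8, 44.9 and 188 in the controls and 188, 170 and 119 in the deleted libraries, in the same order. Platelet markers summed to 6.29, 8.73 and 37.8 and to 28.1, 28.5 and 27.3, and leukocyte markers to 37.4, 80.8 and 104 and to 105, 142 and 107. Endothelial and platelet sums were low in the same 2 controls as *Pdgfb*, those of the first run. Summed leukocyte, fibroblast, cardiomyocyte and Schwann cell markers were also lower in these 2 controls than in every library of the second run. Mural and mesothelial sums were not, so the pattern is not particular to endothelial cells and platelets. The part of any of these cells in the *Pdgfb* values was not tested.

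*Pdgfc* (chromosome 3, 81036416 to 81214040, plus strand) encodes a latent ligand of the α receptor. Its log2 values were 1.46, 1.36 and 1.60 in control 3, 4 and 2 and 1.16, 1.51 and 2.15 in deleted 1, 2 and 3. The deleted libraries held both the lowest and the highest value. The difference was 0.13 (SE 0.37, 95% interval -0.71 to 0.98, limma adjusted p = 0.876), and without deleted 3 it was -0.14. The interval covers differences of either sign, so these libraries do not settle the direction.

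*Pdgfd* (chromosome 9, 6168584 to 6378850, plus strand) encodes the latent ligand of the β receptor. It stood at 1.88, 1.34 and 2.48 on the log2 scale in control 3, 4 and 2 and at 3.18, 3.20 and 2.92 in deleted 1, 2 and 3. Every deleted library lay above every control, and control 2 was the highest control. The mean went from 1.90 ± 0.57 to 3.10 ± 0.16, a difference of 1.20 (SE 0.38, 95% interval 0.33 to 2.07, limma adjusted p = 0.282), with linear means 2.59-fold apart. It was 0.78 after centring and 0.62 against control 2 alone. Both *Pdgfd* and its receptor *Pdgfrb* were thus among the 3 members at an unadjusted p under 0.05.

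Summed over the 4 ligands as deposited, the linear value was 12.3, 13.1 and 18.4 in control 3, 4 and 2 and 22.8, 23.2 and 20.1 in deleted 1, 2 and 3. *Pdgfd* made up 21.9%, 11.7% and 24.9% of this sum in the controls and 35.5%, 35.3% and 32.7% in the deleted libraries, while *Pdgfa* made up 60.5%, 76.1% and 49.5% and then 47.9%, 48.6% and 45.5%. The groups did not overlap in the sum or in either share, narrowly for *Pdgfa* (49.5% in control 2 and 48.6% in deleted 2). Among single tested genes as deposited, 18.3% lay above every control in every deleted library, and the sum was not centred. Both shares are parts of the same sum, so they are not separate from each other or from the *Pdgfd* values above. The log2 value of *Pdgfc* minus that of *Pdgfd* was -0.42, 0.024 and -0.89 in the controls and -2.02, -1.69 and -0.77 in the deleted libraries, which overlapped (difference -1.07, two-sided exact permutation p = 0.2, adjusted over 3 contrasts 0.3). *Pdgfa* minus *Pdgfc* differed by 0.088 (two-sided exact permutation p = 0.9).

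**Figure D4:**
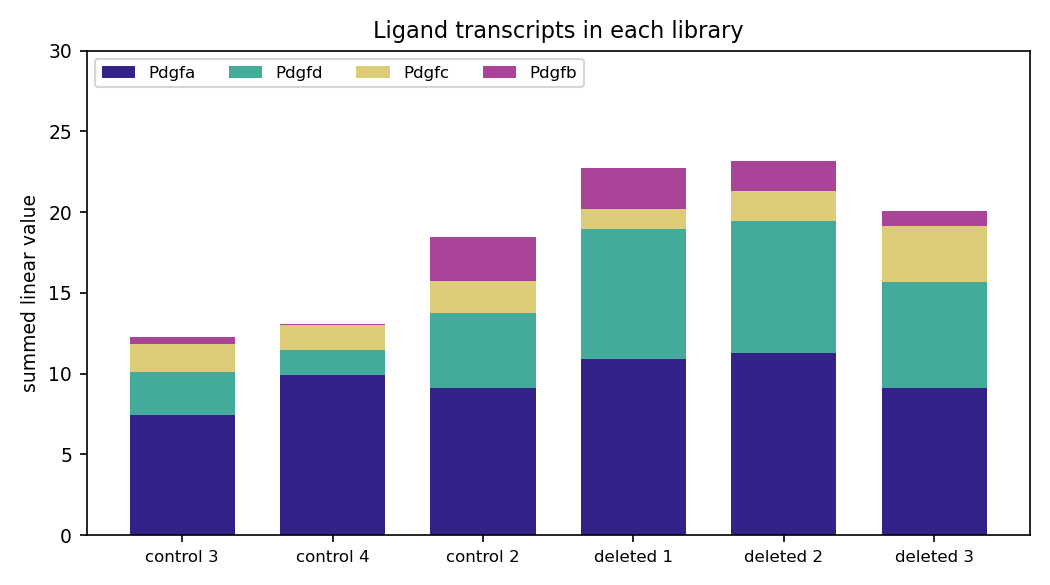
Summed linear value of the 4 ligands in each library, 1 bar per library stacked by gene. The deleted libraries reach 20.1 to 23.2 and the controls 12.3 to 18.4, and the *Pdgfd* segment is larger in the deleted libraries.

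Genes that process the ligands or act with the receptors were described by lists of pathway genes. All 11 tested genes of ligand processing and co-receptors had a higher mean in the deleted libraries (median log2 difference 0.66, against 0.35 for all tested genes), with 4 higher at an unadjusted p under 0.05 and 0 at an adjusted p under 0.05 in limma. Over all tested genes, 74.5% had a higher mean and 14.5% were higher at that unadjusted p. After centring, the list median was 0.24 (-0.060 for all tested genes), and single genes ran from -0.38 to 1.22. Against control 2 alone the list median was 0.50 (0.29 for all tested genes), and single genes ran from -0.32 to 2.19. The rise of every gene in the list therefore holds only for the values as deposited, over all controls. *Furin*, a proprotein convertase, differed by 0.96 (4.00 ± 0.12 and 4.96 ± 0.22, SD, n = 3 each, limma adjusted p = 0.276), and *Plat*, tissue plasminogen activator, which cuts the CUB domain from PDGF-C, by 0.90 (6.06 ± 0.18 and 6.96 ± 0.26, limma adjusted p = 0.282). Against control 2 alone the differences were 1.02 and 0.71.

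Of 40 signal transduction genes, 33 were higher and 7 lower, with 4 higher at an unadjusted p under 0.05, a smaller share than the 14.5% of all tested genes, and a median of 0.33, near that of all genes. *Stat5a*, a transcription factor activated by receptor kinases, differed by 1.39 (limma adjusted p = 0.263), and *Map2k2*, a kinase of the MAPK cascade, by 0.95 (limma adjusted p = 0.274). Of 18 negative regulators, 13 were higher and 5 lower, 2 of them higher at an unadjusted p under 0.05, with a median of 0.29. Both shares lay under those of all tested genes (74.5% and 14.5%), so these counts do not set the list apart. For 4 of the 18 every deleted library lay above every control, against 18.3% of all tested genes. The 2 genes were the MAPK phosphatases *Dusp5* (difference 1.05, limma adjusted p = 0.290) and *Dusp6* (1.30, limma adjusted p = 0.306), and *Dusp6* was only 0.22 above control 2.

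Among 12 genes known to respond to PDGF in cultured cells, 9 were higher and 3 lower, a share close to the 74.5% of all tested genes, with 5 higher at an unadjusted p under 0.05 against 14.5% of all tested genes, and the median was 1.14 (0.73 both against control 2 alone and after centring). *Sphk1*, sphingosine kinase, stood at 4.72, 4.56 and 4.77 in control 3, 4 and 2 and at 5.83, 6.49 and 5.97 in deleted 1, 2 and 3, apart in every library (difference 1.41, limma adjusted p = 0.155). *Nr4a1*, an immediate early gene, differed by 2.38 (limma adjusted p = 0.274) and by 0.87 from control 2. Single genes ran from -0.62 to 2.10 against control 2 alone and from -0.71 to 2.91 after centring. Their order differed, so the equal medians of 0.73 do not rest on the same genes. Many stimuli other than PDGF move these genes. In the related VEGF ligand family all 5 tested genes had a higher mean, against 74.5% of all tested genes, *Pgf* by 1.26 (limma adjusted p = 0.283) and *Vegfb* by 1.08 (0.352). Against control 2 alone *Figf*, the VEGF-D gene, was lower (-0.39). Of 5 related receptor tyrosine kinases 4 were higher, against 74.5% of all tested genes, and 0 passed an unadjusted p of 0.05. The smallest p belonged to *Csf1r* (0.91, limma adjusted p = 0.351) and *Flt1* (0.74, 0.493). Against control 2 alone these 2 genes differed by 0.085 and -0.29. The list median fell from 0.74 to -0.014 against control 2 alone, where that of all tested genes was 0.29. No gene of these lists passed an adjusted p of 0.05, and none was lower at an unadjusted p under 0.05.

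**Figure D5:**
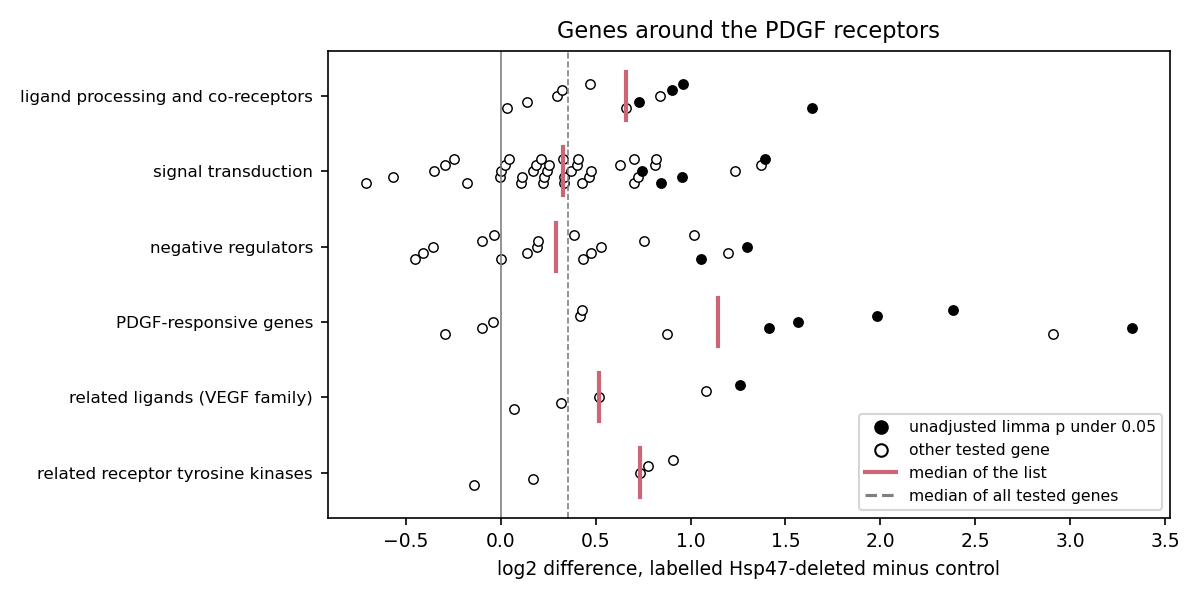
Log2 difference, libraries labelled Hsp47-deleted minus control, of each tested gene in the 6 lists. Filled points have an unadjusted limma p under 0.05, red bars are list medians and the dashed line is the median of all tested genes at 0.35. All filled points lie to the right of 0, and the PDGF-responsive list has the highest median at 1.14.

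Profiles over the 6 libraries, each centred on its median, were compared by Pearson r with those of the 7881 or 7882 other genes of mean log2 value at least 3. These correlations describe 6 libraries that share runs and groups. Nearest to *Pdgfra* were *Csrp1* (0.997), *Abca8b* (0.996), *Igfbp4* (0.994), *Cog5* and *Capn5*, and nearest to *Pdgfrb* were *Crispld2* (0.996), *Scarf2* (0.996), *Tmem167b*, *Gm15662* and *Atp6v0a2*. Nearest to *Pdgfd* were *Ccdc80* (0.992), *Pcnxl3* (0.991), *Mfap5* (0.990), *Nr1h2* and *Cad*. The leading genes for *Pdgfa* were *Fyco1* (0.995), *Mettl8*, *Arf3*, *Zfp365* and *Nfx1*, for *Pdgfb* *Gngt2* (0.997), *Gstm2*, *Ndufaf3*, *Glt8d1* and *Cyp2d22*, and for *Pdgfc* *Dnajc25* (0.992), *Ube2v2*, *Ept1*, *Vdac2* and *Ccl7*. Between members, the pairs with an r beyond 0.8 in either direction were *Pdgfd* with *Pdgfrb* (0.942), *Pdgfrl* (0.887) and *Pdgfa* (-0.91), *Pdgfrl* with *Pdgfrb* (0.873) and *Pdgfa* (-0.932), *Pdgfb* with *Pdgfra* (0.861), and *Pdgfa* with *Pdgfrb* (-0.837). The other pairs lay between -0.548 and 0.781. The negative r of *Pdgfa* hold after centring, where its difference between the groups turned from 0.22 to -0.19. As deposited, its difference had the same sign as those of the other members. How often pairs of other genes reach such an r was not counted.

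Antisense genes overlap *Pdgfa*, *Pdgfb*, *Pdgfc* and *Pdgfra* in GENCODE M21, and *Ddi1* lies on the opposite strand within *Pdgfd*. Overlap was taken over whole gene spans and not over exons, and whether the counting used strand is not stated. Whether reads of such partners entered the values is therefore not known. No member had a near-identical copy among annotated transcripts. Cardiomyocyte markers summed to 48.3 to 264 in controls and 165 to 289 in deleted libraries, Schwann cell markers to 3.83 to 6.36 and 6.38 to 6.88, and mesothelial markers to 1.37 to 6.09 and 3.22 to 11.0.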

How the data were processed

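RNA of sorted EGFP+ cells was amplified (Ovation v2), made into Nextera XT libraries and sequenced on a HiSeq2500. The authors deposited log2(value + 1) per gene and library, with group means and their own comparison columns (folds and p-values), which were not used. The submitters' processing notes name kallisto and mm10, and the paper names AltAnalyze. The linear unit is not named, values hold fractions, and linear sums ran from 690499 to 855404 per library, so the depth is unknown. Genes with a mean linear value of at least 1 entered a limma fit (version 3.58.1, R 4.3.3, eBayes with a mean-variance trend, no covariate, Benjamini-Hochberg adjustment over 15109 genes), with the deposited pseudocount of 1. The differences are on that log2(value + 1) scale, which understates changes of low genes. The fit was tested on simulated data. Within-library contrasts used two-sided exact permutation tests, which cannot go below 0.10 for 3 against 3. Positions and transcript lengths came from GENCODE M21, copies from minimap2 2.31-r1302, and promoters from RefSeq. The text names the members, *Serpinh1*, the 2 genes of smallest p in each pathway list, and the 5 genes most like each receptor and ligand. Marker genes named singly and *Figf* were chosen after their values were seen. The members and lists were chosen with earlier results of these data known. Alternatives covered run, replicate number, filter, pseudocount, scaling, variance model and each library left out.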

Additional observations from a re-analysis of the deposited data

How the results depend on the processing

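The differences of *Pdgfd*, *Pdgfrb* and *Pdgfrl* stayed above 0 under every alternative run, from 0.62 to 1.49, 0.46 to 2.00 and 0.61 to 1.26 on the log2 scale, with limma adjusted p from 0.0237, 0.00989 and 0.0181 up to 0.783. The lowest values are those against control 2 alone or with run as a covariate, and the highest those without control 2. *Pdgfa* turned to -0.19 under quantile normalization and centring, *Pdgfb* to -0.45 and *Pdgfra* to -0.28 with run as a covariate or in the second run alone, *Pdgfra* to -0.074 under centring, and *Pdgfc* to -0.28 under quantile normalization and centring and to between -0.14 and 0.36 with 1 library left out. The cause was not tested. The 37 genes called became 16 with a pseudocount of 0.1, 17 under quantile normalization, 18 under centring and 8 (without deleted 3) to 2768 (without control 2) with 1 library left out. Members called went from 0 to between 0 and 3 with 1 library left out (3 without control 2), and members higher in every deleted library from 3 to 2 under quantile normalization, centring and rescaling to 1 linear sum, and to between 3 and 5 with 1 library left out (5 without deleted 3). Members at an unadjusted p under 0.05 went from 3 to 0 with run as a covariate or quantile normalization and to 1 under centring. *Pdgfra* minus *Pdgfrb* moved to -0.74 in the second run alone, and *Pdgfa* minus *Pdgfc* lay between -0.17 and 0.44 with 1 library left out.

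Replicate numbers 2 and 3 occur in both groups. With the number as a replicate block, limma called 0 genes, 1 member kept an unadjusted p under 0.05 and *Pdgfra* turned to -0.071. The deviations of same-numbered libraries from their group means correlated at 0.156 and 0.228 and those of other pairs at -0.417 to 0.382. Deviations within a group of 3 depend on each other, and the controls were split by run. These values therefore cannot decide whether same-numbered libraries were paired.

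The order of levels per transcript length was chosen after seeing the data. By group means, it put *Pdgfrl* in place 1 in both groups, and *Pdgfra* in place 2 in controls and 3 in deleted libraries, where *Pdgfrb* took place 2. Depth is unknown, and 3 libraries per group with 1 control in the run of the deleted libraries limit all differences.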
